A study of Mus musculus with 1 sample.

Results

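Levels of 70 genes for serpins, cathepsins, cystatins and plasminogen activators were described in the surface epithelium of the ovary, taken from wild-type mice at an age of 3 months. The genes were those analysed here, not all genes of these families, whose symbol begins with Serpin, a clade letter from a to i and a digit, or names a cathepsin by 1 letter or a cystatin by a number, together with Cstb, Plat, Plau, Plaur and Plg. The members were read from 103 probe sets, each paired with a single gene symbol, out of 18193 genes measured in this way. The study set out to compare surface epithelium between 3 mouse genotypes. One sample was analysed here, total RNA of the wild-type cells on 1 Affymetrix expression array, so no genotypes were compared, no value has a replicate error and no test was made. The sources used here give neither the number of animals behind the RNA nor the way the cells were isolated.

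Intensities are the authors' values on a linear scale. A gene whose brightest probe set exceeded 46.5 was called above background. This limit is the 95th percentile of 126 probe sets of sensory receptor families (odour, pheromone and bitter taste) and of the keratin-associated proteins of hair. Probe sets differ in affinity, so a level was read against this limit and not against the level of another gene. All 10 surface epithelial and mesothelial markers were above it, with Krt7 at 8204 and Wt1 at 4589. All 7 fibroblast markers, all 6 smooth muscle markers and 10 of 12 macrophage markers also were, while 0 of 7 oocyte and 1 of 8 endothelial markers were. Of the 10 macrophage markers Adgre1, at 47, was barely above the limit. Markers of granulosa cells were above background in 4 of 6 cases (Inha at 1438), of theca and luteal cells in 3 of 4 (Star up to 1229) and of platelets in 3 of 4 (Itga2b at 172). Whether these markers were read from other cells or from the surface cells themselves was not tested. The part of other cells in the levels below was not tested either. In RNA of a whole preparation, fewer cells of a type and less RNA per cell cannot be told apart.

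Cathepsins are proteases that work mostly in lysosomes, where acid activates them and where they degrade proteins taken up or turned over by the cell. Cystatins are small proteins that block cysteine cathepsins, inside the cell for stefin-type members such as Cstb and outside it for secreted members such as Cst3. Serpins trap serine proteases by a change of shape after cleavage of an exposed loop, although some serve as chaperones or hormone carriers instead. Plasminogen activators cut plasminogen to plasmin, a protease that dissolves fibrin and matrix, and the ovarian surface is a site of proteolysis at ovulation.

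Of the 70 members 31 were above background and 39 were not. The count was 12 of 17 cathepsins, 4 of 9 cystatins, 2 of 4 genes of plasminogen activation and 13 of 40 serpins. Over all 18193 genes, 62.8% were above the limit. The members' share of 44.3% was thus below that of all genes, the cathepsin share of 70.6% lay near it and the serpin share of 32.5% lay below it. Genes with more probe sets have more chances to pass. Among members with 1 probe set 15 of 46, or 32.6%, were above the limit, against 47.3% of such genes on the array, and among members with several it was 16 of 24, or 66.7%, against 78.7%. As a description only, the median level was 28.5 for the members and 133 for all genes, 16 and 39 among those with 1 probe set, and 911 and 318 among those with several.

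**Figure D1:**
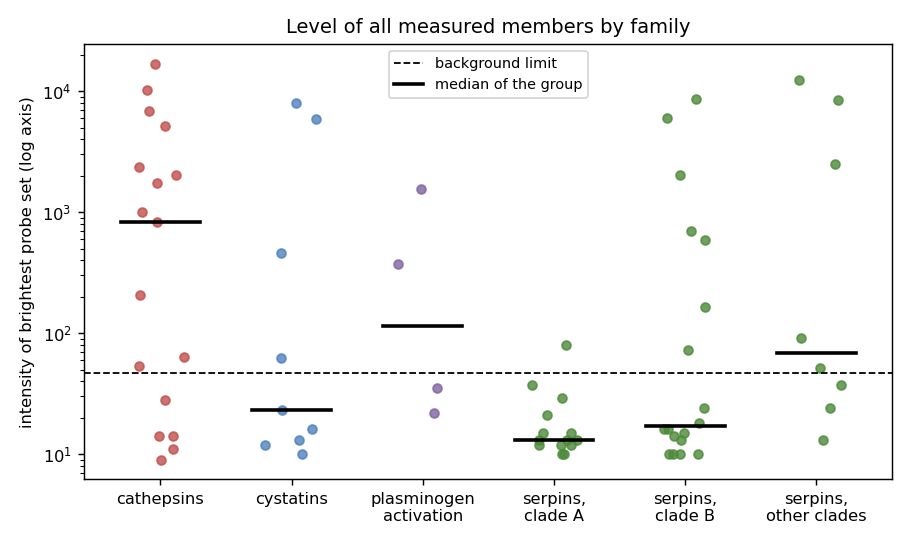
Intensity of the brightest probe set (log axis) of each of the 70 measured members by family, 1 point per gene, with the median of each group as a bar and the background limit of 46.5 as a dashed line. Cathepsins reach from 9 to 16828, whereas 13 of 14 clade A serpins lie below the limit.

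Promoter sequences from RefSeq (GRCm38.p6), running from 250 bases before to 50 bases after a transcript start, were found for 54 members by symbol. Of these 54 members 22, or 40.7%, were above background, against 64.1% of the array genes with a promoter sequence. The CCAAT box, searched on both strands, occurred in windows of 21 members, or 38.9%, and of 42.0% of the array genes. Of these 21 members 5, or 23.8%, were above background, against 65.1% of the array genes with a CCAAT box. Stretches of 7 members are shown for the other motifs searched, the E-box, the TATA box and the GC box. The E-box CACGTG, which reads the same on both strands and forms the core of the element bound by Tfeb, a regulator of lysosomal genes, occurred in windows of 4 members. These were Ctsa, Ctsd, Ctsf and Ctsl, all cathepsins above background. By gene, an E-box was held by 7.41% of the 54 members and by 10.2% of the 14452 array genes with a promoter sequence, and 74.6% of the 1479 array genes that held one were above background. In the 4 stretches capitals mark the E-box.
Ctsa: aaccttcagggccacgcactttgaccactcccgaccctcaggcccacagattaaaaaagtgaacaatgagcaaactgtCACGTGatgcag
Ctsd: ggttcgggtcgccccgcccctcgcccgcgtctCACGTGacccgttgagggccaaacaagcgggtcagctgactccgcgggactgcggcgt
Ctsf: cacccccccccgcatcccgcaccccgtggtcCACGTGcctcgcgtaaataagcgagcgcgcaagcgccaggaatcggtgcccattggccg
Ctsl: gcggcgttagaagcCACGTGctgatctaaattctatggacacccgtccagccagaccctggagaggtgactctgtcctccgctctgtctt
The Ctsa stretch is chr2:164833683-164833772 on the plus strand, before the second of 2 listed starts, and ends at the base before that start. The Ctsd stretch is chr7:142387868-142387957 on the minus strand, the Ctsf stretch chr19:4855055-4855144 on the plus strand, and the Ctsl stretch chr13:64370681-64370770 on the minus strand. The E-boxes shown began 12 bases before the start site in Ctsa (position -12), at -98 in Ctsd, at -79 in Ctsf and at -236 in Ctsl, and further E-boxes outside the stretches shown lay at -245 in Ctsd and at position 6 after the start in Ctsa. Of the 13 cathepsins with a promoter sequence, 4 thus held an E-box. The other 4 of the 8 above background, Ctsc, Ctsk, Ctso and Ctsz, held none in these windows, so a cathepsin above background did not always hold one.

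The TATA box TATAAA, searched on both strands, occurred in windows of 12 members, or 22.2%, and of 11.5% of the array genes. None of the 12 was above background, while 48.1% of the 1662 array genes with this motif in a window were. They comprised 8 serpins, 3 cathepsins and 1 cystatin, among them Serpinb2, Serpinb3a, Serpinb7, Serpina7 and Ctsm. The motif lies at many distances from the start in these windows, for example at -244 in Serpini2 and at -29 in Serpinb2. The stretch before the start of Ctsm, a cathepsin of the rodent placenta, is chr13:61541840-61541929 on the minus strand. Its capitals mark overlapping copies on the 2 strands.
Ctsm: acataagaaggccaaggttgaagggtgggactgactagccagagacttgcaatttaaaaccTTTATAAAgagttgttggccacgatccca
The GC box GGGCGG, also searched on both strands, was held by 15 members, or 27.8%, and by 57.3% of the array genes. Of these 15 members 11, or 73.3%, were above background, against 78.4% of the array genes with a GC box. Serpinb6a and Serpinb6c are neighbouring paralogs on opposite sides of the background limit, at 5990 and 14. Their stretches are chr13:34002795-34002884 on the minus strand and chr13:33905192-33905281 on the minus strand, and capitals mark the GC box or its reverse complement.
Serpinb6a: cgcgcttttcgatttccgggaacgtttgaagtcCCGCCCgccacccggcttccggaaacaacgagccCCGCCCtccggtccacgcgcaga
Serpinb6c: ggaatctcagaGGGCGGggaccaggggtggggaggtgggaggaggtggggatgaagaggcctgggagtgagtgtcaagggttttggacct
The Serpinb6a stretch held 2 GC boxes and the Serpinb6c stretch held 1. The ratio of observed to expected CpG was 1.12 in the window of Serpinb6a that holds this stretch and 0.47 in that of Serpinb6c. At the other listed start of Serpinb6a the ratio was 0.27, and the window held no GC box. The paralogs above background also differed. Serpinb6b at 8675 had a ratio of 0.24 and a GC box, and Serpinb6e at 163 had a ratio of 0 and no GC box.

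Most members had promoters poor in CpG, the dinucleotide that is depleted in methylated DNA and kept in the promoters of many widely expressed genes. With the highest window of a gene counted, only Ctsd, Ctsf and Serpinb6a reached a ratio of 0.6, and all 3 were above background, as were 82.8% of the array genes at or over this ratio. That is 5.56% of the 54 members, against 60.0% of the array genes. Among genes under 0.6, 19 of 51 members, or 37.3%, were above background, close to the 36.1% of all such genes. The median ratio of cathepsins was 0.53 for those above background and 0.12 for those not above it, while for serpins it was 0.24 and 0.25. Over all array genes it was 0.80 and 0.36, so a higher ratio above background was not particular to cathepsins. The cathepsin medians rest on 13 genes, 8 of them above background, and those not above it include the neighbouring genes Ctsj, Ctsm, Ctsq and Ctsr. A motif or a CpG ratio describes the sequence only, and the promoters of the other 16 members were not analysed here.

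**Figure D2:**
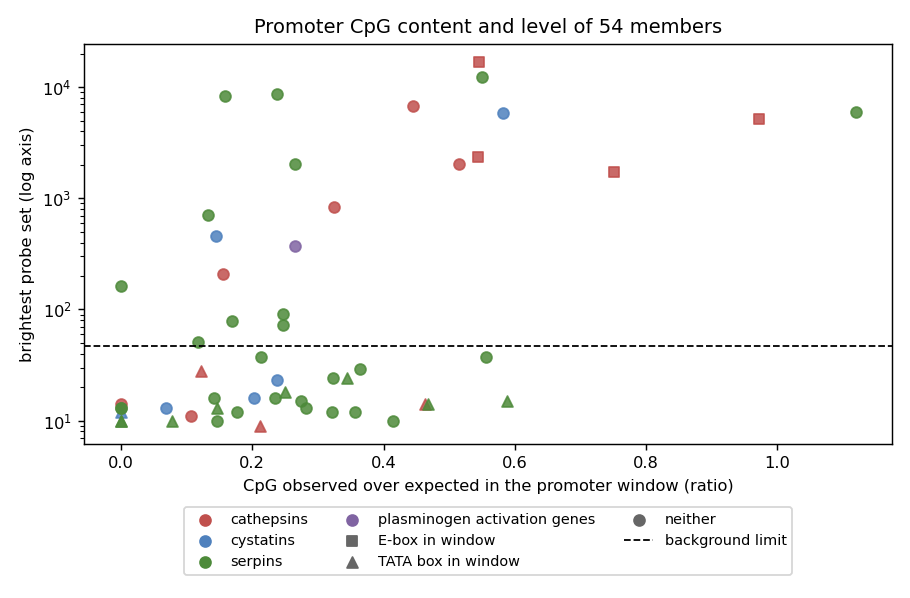
CpG observed over expected in the promoter window (highest window of a gene) against the intensity of the brightest probe set (log axis) for 54 members, coloured by family and shaped by motif, with the background limit dashed. The 4 genes with an E-box lie above the limit of 46.5 and the 12 with a TATA box below it; over all array genes 74.6% with an E-box and 48.1% with a TATA box were above it.

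The cathepsins above background included the main lysosomal endopeptidases. Ctsl, a cysteine protease, had 16828 on 1 probe set, whose identifier marks several transcripts of a gene, and 94 on the other. Ctsb, a cysteine protease that also removes dipeptides from protein ends, had 10246, 3318, 971, 682 and 24 on its 5 probe sets. Ctsd, the main aspartic protease of lysosomes, had 5178 on its only probe set. All 3 genes had their brightest probe set at least 6.80 above the limit on the log2 scale, although 1 probe set of Ctsb read background.

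Exopeptidases were present as well. Ctsz, a carboxypeptidase, had 6807, 2347 and 2196. Ctsh, mainly an aminopeptidase, had 999 and 596. For both genes the probe sets lay on the same side of the limit. Ctsa, a serine carboxypeptidase that also protects the lysosomal sialidase Neu1, had 2380 and 50, the lower being barely above the limit. Ctsc, a dipeptidyl peptidase that activates the granule proteases of white blood cells, had 2024, 50 and 17. Its classic substrates were not above background, with Elane at 20, Prtn3 at 22, Gzma at 13, Gzmb at 19 and Ctsg, itself a neutrophil granule protease, at 14.

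Of the remaining cathepsins above background, Ctsf and Ctso, both cysteine proteases, were above the limit on 1 of 2 probe sets. Ctsf had 1744 and 21, and Ctso had 830 and 24. Ctsk, the collagen-degrading protease best known from osteoclasts, had 207 on its only probe set. Ctsw, a protease of cytotoxic lymphocytes, had 63, and Ctse, an endosomal aspartic protease, had 53 and 37. These last levels lay within 0.44 of the limit on the log2 scale. None of 6 lymphocyte markers was above background, and their levels ran from 14 to 46.

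The cathepsins not above background were Ctsg and the 4 members of the placental group. Ctsj, Ctsm, Ctsq and Ctsr, which arose in rodents and are known from the placenta, had 11, 9, 28 and 14. Further relatives without a letter name behaved in the same way, with 0 of 5 above background. Cts3, Cts6, Cts7 and Cts8 had at most 13, and Ctsll3 had 16. The cathepsins of the family thus fell into a set read well above the limit, Ctsw and Ctse near it and a set at background.

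Other lysosomal genes were above background throughout the list, 16 of 16, with a median of 2806. Over all genes 62.8% were above the limit, with a median of 133. Many genes of the list have several probe sets, and of all such genes 78.7% were above it, with a median of 318. Lgmn, the asparaginyl protease that processes several cathepsins, had 2313. Lamp1 and Lamp2, the abundant membrane proteins of lysosomes, had 4907 and up to 9174, and Scarb2, which carries glucocerebrosidase to lysosomes, had 3879 and 1366. Tfeb itself had 203. Macrophages are rich in lysosomes, and their markers ran from 16 to 2142 in the same RNA, with Csf1r at 527 on its brightest probe set, Cd68 at 334, and Mrc1 and Cx3cr1 not above background. The part of macrophages in the cathepsin levels was not tested.

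**Figure D3:**
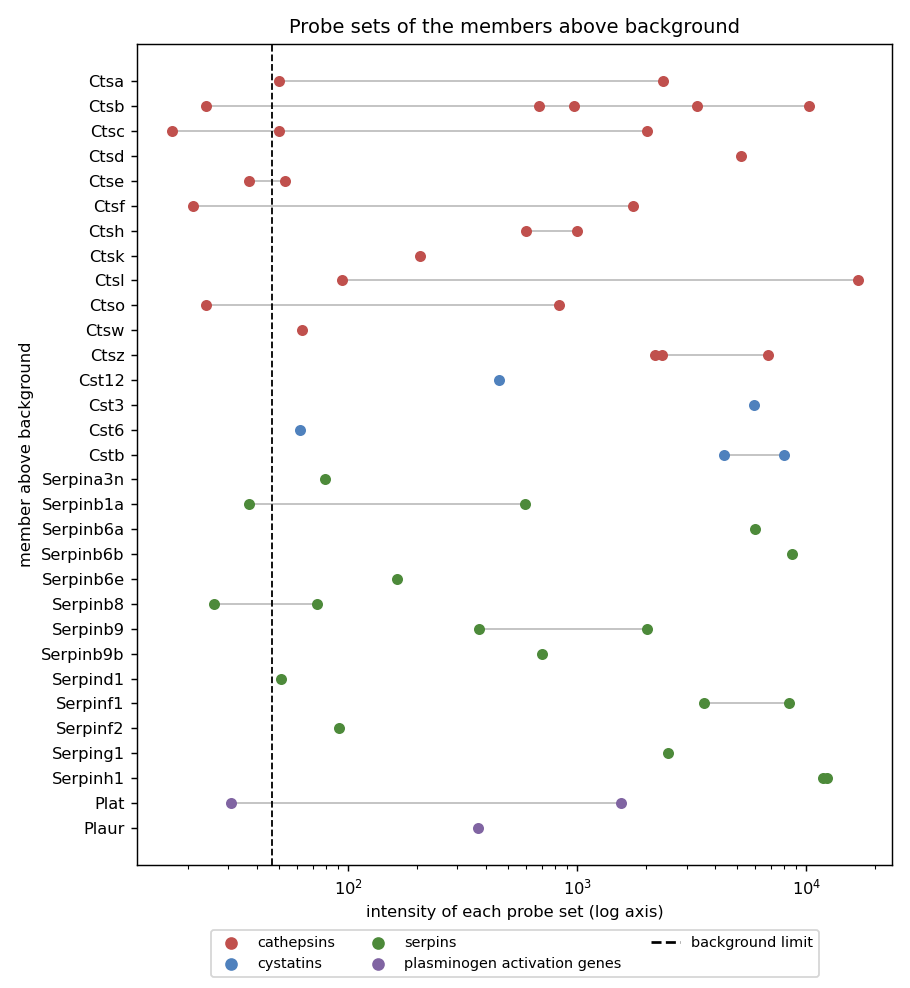
Intensity (log axis) of every probe set of the 31 members above background, 1 row per gene, coloured by family, with a grey line from the lowest to the highest probe set and the background limit of 46.5 dashed. Several genes, such as Ctsb from 24 to 10246, span the limit, while both probe sets of Serpinh1 lie at 11878 and 12251.

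Among the cystatins, the inhibitors of these proteases, both broadly expressed members stood far above background. Cstb, the intracellular stefin B, had 7984 and 4387. Cst3, the secreted cystatin C, had 5902 on its only probe set. Cst12, a cystatin known from the male reproductive tract of the mouse, had 458, which was 3.30 above the limit on the log2 scale, on a single probe set. Cst6, a cystatin of skin that also blocks Lgmn, had 62.

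The other 5 cystatins were at background. Cst7, an inhibitor of blood cells, had 23, and Cst9, Cst10, Cst11 and Cst13 had 16, 13, 10 and 12. Of 7 measured relatives outside the number-named family 2 were above the limit, Fetub at 50 and Cstad at 59. The first 4 relatives in the list, Stfa3, Stfa2l1, Cstad and Ahsg, had 10, 10, 59 and 19. The cystatins thus divided into Cstb, Cst3 and Cst12 well above the limit, Cst6 near it and the rest at background.

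Plasminogen activation was represented by an activator and a receptor. Plat, tissue-type plasminogen activator, had 1555 on 1 probe set and 31 on the other. Plaur, the cell surface receptor for urokinase, had 371 on its only probe set. Plau, urokinase itself, had 35 and 31, both below the limit of 46.5. Plg, the plasminogen made by liver and carried in blood, had 22, and 1 of 6 liver markers was above background, Ttr at 65.

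The list of genes that bind plasminogen, clear its activators or serve as substrates also holds genes of coagulation control. It was divided, with 11 of 19 measured members, or 57.9%, above background against 62.8% of all genes. F3 at 603, Thbd at 4499 and Procr at 537, genes of coagulation control, are among the 11. Anxa2 and S100a10, which form a surface complex that gathers plasminogen and Plat, had up to 11402 and 6062, although 1 of 3 Anxa2 probe sets read 12. Plgrkt, a plasminogen receptor, had 1368. Lrp1, which takes up complexes of activators with inhibitors, had 2800 and 42. Fga, Fgb and Fgg, the fibrinogen chains made by liver and named here after their values were seen, had 11, 20 and 16. The other 5 members not above background were Lrp8, Vtn, Hpn, Klkb1 and F12, with levels from 15 to 41.

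Some serpins known to inhibit plasmin or its activators, chosen after their values were seen, are given here, and Serping1, which also inhibits plasmin, is given below. Serpinf2, the plasmin inhibitor alpha-2-antiplasmin, had 91, or 0.97 above the limit on the log2 scale. Serpinb2, plasminogen activator inhibitor 2, had 24. Serpini1, neuroserpin, a neuronal inhibitor of Plat, had 37, 17 and 8. Serpina5, which inhibits protein C and urokinase, had 12.

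Of 8 serpins outside clades A and B 5 were above background, or 62.5%, close to the share of all genes. Besides Serpinf2 and Serpind1, which lay within 0.97 of the limit on the log2 scale, these were Serpinh1, Serpinf1 and Serping1. Serpinh1, the collagen chaperone of the endoplasmic reticulum also called HSP47, had 12251 and 11878. Its probe sets differed by 0.04 on the log2 scale, so the reading did not depend on the probe set chosen. Serpinf1, pigment epithelium-derived factor, a secreted serpin without inhibitory activity that limits vessel growth, had 8403 and 3561. Serping1, the C1 inhibitor of complement and kinin activation, had 2485 on its only probe set. C1ra, a complement protease it blocks, had 1421.

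The list of collagen folding partners of Serpinh1 also holds collagen chains and the matrix gene Sparc. It was above background in 16 of 16 cases, against 62.8% of all genes, with levels from 533 to 29972. Many genes of this list have several probe sets, and of all such genes 78.7% were above background. The genes of the list that fold or modify collagen ran from 533 for P3h1 to 10090 for P4hb. Col1a1 and Col1a2, the type I collagen chains, had up to 8290 and 29972, Col3a1 up to 22640 and Col4a1 up to 18113. Fibroblast markers, 3 of which are collagens of this list, were above background in 7 of 7 cases with levels from 307 to 29972. Whether Serpinh1 and Serpinf1 were read from surface cells or from fibroblasts was not tested.

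Clade B serpins act inside cells, mostly against proteases that leak from granules or lysosomes, and 7 of 18 were above background. Serpinb6a and Serpinb6b, mouse counterparts of a human serpin that blocks cathepsin G, had 5990 and 8675, each on 1 probe set. Serpinb6e, a paralog, had 163 on a probe set marked as possibly shared with other genes. Serpinb6c had 14. The 3 readings above background come from close paralogs, so cross-hybridisation can enter them, most of all that of Serpinb6e.

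Serpinb9, the inhibitor that protects cells from granzyme B, had 2022 and 373. Its paralog Serpinb9b had 701, while Serpinb9c had 10 on both probe sets, Serpinb9d had 16 and Serpinb9g had 10. Serpinb1a, an inhibitor of neutrophil elastase, had 591 and 37, and its paralog Serpinb1b had 16. Serpinb8, an inhibitor of furin, had 73 and 26. Elane and Gzmb, the targets named for Serpinb1a and Serpinb9, were at background as given above, and neutrophil markers were above background in 1 of 7 cases, with Camp at 60.

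The epithelial serpins of clade B were at background. Serpinb5, maspin, a gene of mammary and squamous epithelium, had 4 probe sets between 8 and 15. Serpinb3a, Serpinb7, Serpinb11 and Serpinb12, which are known from skin and other stratified or mucosal epithelia, had at most 18. Clade B serpins above background thus belonged to the Serpinb6, Serpinb9 and Serpinb1 groups, with Serpinb8 near the limit.

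Clade A, which holds the inhibitors and hormone carriers of blood plasma, had 1 of 14 members above background. This was Serpina3n, a serpin induced in inflammation, at 79, or 0.76 above the limit on the log2 scale. The other 13 had levels from 10 to 37. They included Serpina1b and Serpina1c, alpha-1-antitrypsins, at 13 and 12, Serpina6, the corticosteroid carrier, at 10, and Serpina7, the thyroxine carrier, at 10. Serpina11 at 37 and Serpina12, also called vaspin, at 29 came nearest to the limit. The 3 probe sets shared by several Serpina1 or Serpinb9 paralogs were left out of the counts and had at most 21.

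The coagulation serpins were near or below the limit. Serpind1, heparin cofactor II, had 51, and Serpinc1, antithrombin, had 24. Both inhibit thrombin, whose gene F2 had 17. Of 21 measured serine proteases listed as partners of serpins 6 were above background, or 28.6%, against 62.8% of all genes. Many genes of this list have 1 probe set, and of all such genes 47.3% were above it. F7, F9 and F10, coagulation proteases, had 24, 11 and at most 24. The 6 above, named after their values were seen, were C1ra, Htra1 at 10327, Prss23 at 5138, Prss35 at 2467, Klk1 at 81 and Masp1 at 52. Htra1, Prss23 and Prss35 are secreted proteases listed here without an established serpin inhibitor. Serpini2, a serpin of pancreas, had 13.

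**Figure D4:**
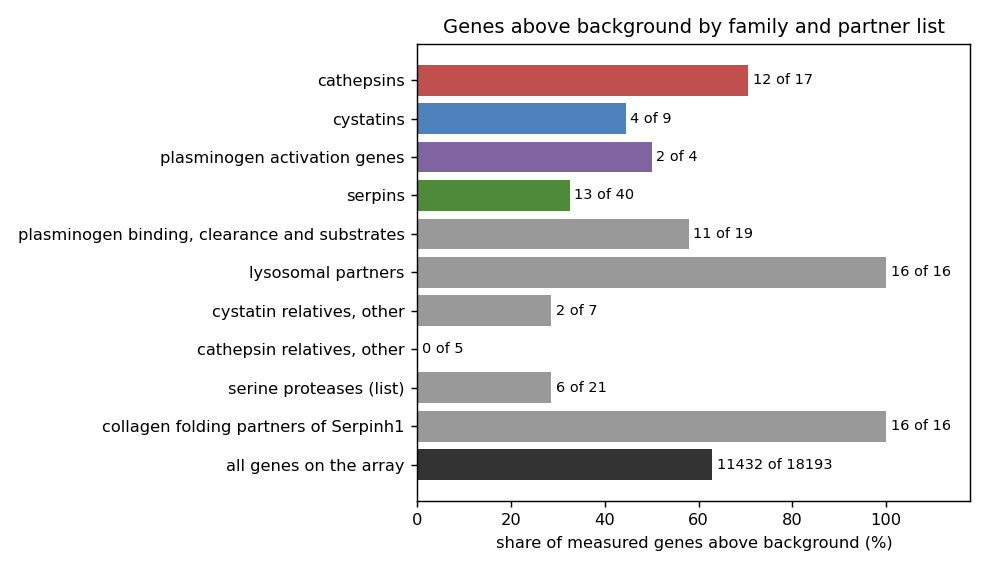
Share of measured genes above background (%, axis from 0) for the 4 member families, for 6 lists of partner genes and, lowest, for all genes on the array, with the counts printed beside the bars. Lysosomal partners and collagen folding partners, a list that includes collagen chains, reach 16 of 16, serpins 13 of 40 and all genes 11432 of 18193.

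Many of these genes lie in clusters that arose by duplication. With members joined when at most 5 other protein-coding genes stood between them in RefSeq, 40 of 69 protein-coding members lay in 5 clusters of 3 or more. Of these 40 members 10 were above background, against 21 of the 29 outside such clusters. Over all genes 62.8% were above it, 47.3% of those with 1 probe set and 78.7% of those with several. The number of probe sets per gene was not matched between members inside and outside clusters. The clusters differed among themselves. The clade B cluster from Serpinb1a to Serpinb6a had 6 of 11 above background, and the clade B cluster from Serpinb5 to Serpinb8 had 1 of 7, the end member Serpinb8. The clade A cluster from Serpina10 to Serpina3n had 1 of 12, the end member Serpina3n.

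Levels switched sharply between neighbours in some clusters. In the cluster that starts with Serpinb1a the first 4 measured genes in order, Serpinb1a, Serpinb6b, Serpinb9 and Serpinb9b, were above background. The next 4, Serpinb1b, Serpinb9c, Serpinb9d and Serpinb9g, were at 10 to 16, and Serpinb6e, Serpinb6c and Serpinb6a followed at 163, 14 and 5990. The placental cathepsin cluster had 0 of 4 above background, while Ctsl, elsewhere on the same chromosome, had 16828. In the cystatin cluster only Cst12 and Cst3 were above the limit, in 6 measured genes.

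**Figure D5:**
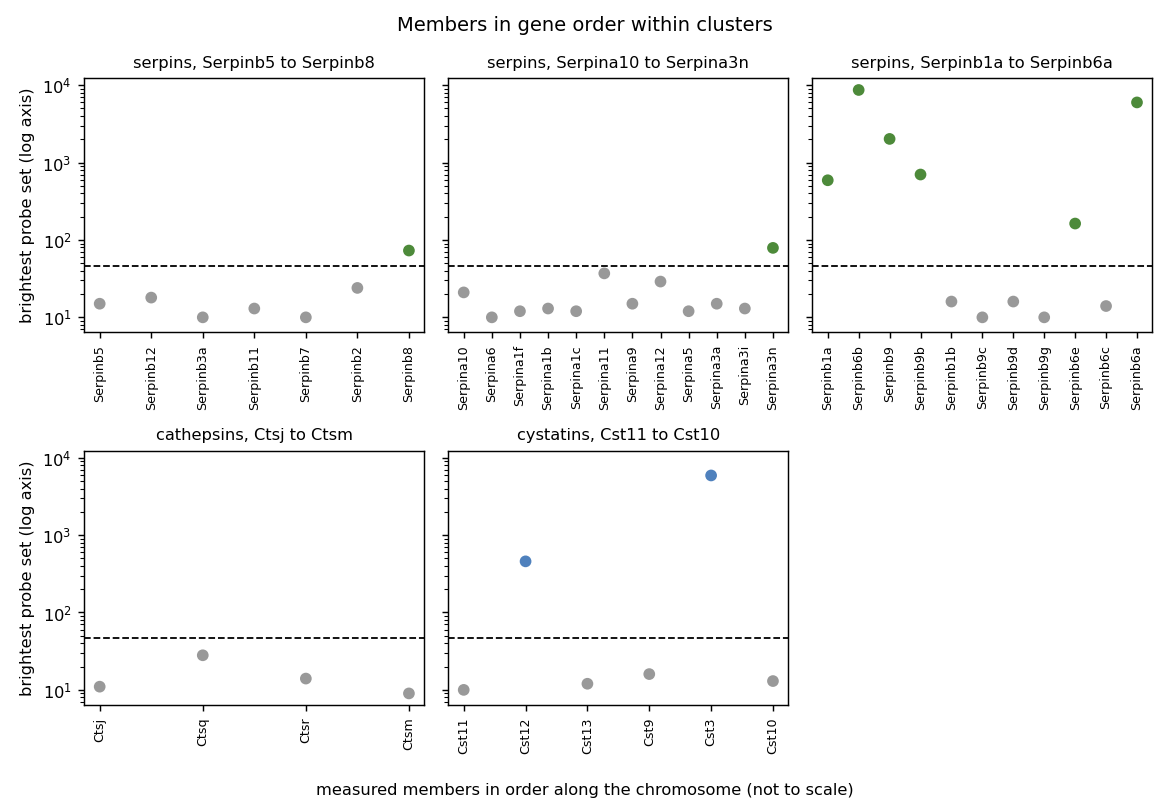
Intensity of the brightest probe set (log axis) of measured members in their order along the chromosome, 1 panel for each of the 5 clusters, coloured where above the dashed background limit and grey where not. In the cluster from Serpinb1a to Serpinb6a 6 of 11 genes lie above the limit, in the other 2 serpin clusters 1 gene each.

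Probe sets of the same gene were the only spread that 1 array offers. Of 24 members with several probe sets 8 had all above the limit, 8 had none and 8 had them on both sides. The SD of log2 intensity between probe sets had a median of 2.28 for the 16 of these members above background and 0.32 for the 8 not above it. Members not above background have all probe sets below the limit, so their smaller SD follows at least in part from the call itself. Ctsl, with 16828 and 94, had the largest SD, 5.29, and Serpinh1 the smallest among members above background, 0.03. For Ctsb, Ctsc, Ctsf, Ctso, Plat and Serpinb1a the brightest probe set was far above the limit and another was below it, so these genes were above background by some probe sets only. Another 8 members, Cst3, Ctsd, Ctse, Ctsz, Plaur, Serpinb6a, Serpinb6e and Serpinh1, passed the limit only on probe sets whose identifiers mark several transcripts of a gene or possible sharing between genes, and without its marked probe set Ctsl was at 94.

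The limit divided the members without a clear gap. The nearest above it were Serpind1 at 51, Ctse at 53, Cst6 at 62, Ctsw at 63, Serpinb8 at 73 and Serpina3n at 79, and the nearest below it were Serpina11 and Serpini1 at 37, Plau at 35 and Serpina12 at 29. Each of these 10 genes changed sides under at least 1 alternative. A total of 16 members were above background in every setting tried in which they had a probe set, and 34 were in none.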

How the data were processed

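Column-purified total RNA (5 ug) of the wild-type cells was turned into biotinylated cRNA for the array, per the labels' protocols. The deposited file holds 1 intensity for each of 45101 probe sets, made with affy and RMA, per the submitters' processing notes. RMA corrects background, normalizes between arrays and summarises probes. The sources used here give no versions and do not say how whole numbers on a linear scale (6 to 32341) arose. At the limit, rounding shifts a log2 value by 0.015.

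Intensities were put on the log2 scale. Symbols came from the platform annotation, and all 70 members matched RefSeq by symbol. Some further genes of these families are not reported here. Each gene took the value of its brightest probe set. The background limit came from 112 genes. All analysed members above the limit were named. Of those below it the cathepsins, cystatins, plasminogen genes and the 5 nearest serpins were named by rule. The first 4 measured members of each partner list, in written order, were also named by rule. Other serpins below the limit were named after their values were seen. Other partner genes were named after their values were seen. The members and lists were chosen with earlier results of these data known. Calling was tested on simulated data with expressed genes set far above background, which cannot tell how genes near the limit are called. An array has no read depth, and 1 array leaves the precision of each level unknown. Alternatives were 2 other percentiles, 2 other backgrounds, the mean or lowest probe set, and leaving out marked identifiers, which can stand for several transcripts or genes. The software was matplotlib 3.10.9, pandas 2.3.3, NumPy 2.4.6 and Python 3.11.15.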

Additional observations from a re-analysis of the deposited data

How the results depend on the processing

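The count of 31 members above background ranged from 22 to 36 over the 7 alternatives. With genes restricted to other organs as background, where the limit was 278, the serpin count was 8 in place of 13, the total was 22, and 38.8% of all genes were above the limit. With each gene read from its lowest probe set, the cathepsin count was 7 in place of 12 and that of plasminogen activation genes was 1 in place of 2, since Ctsb, Ctsc, Ctse, Ctsf, Ctso and Plat each had a probe set below the limit. Without marked identifiers only 1 plasminogen activation gene, Plat, was above the limit, since the sole probe set of Plaur is a marked one. The other counts of the 4 families stayed within 1.5 times their values. Plau passed when the 90th percentile set the limit, and when only olfactory and vomeronasal receptors did. At the 99th percentile 6 members fell below it, Cst6, Ctse, Ctsw, Serpina3n, Serpinb8 and Serpind1. The calls of 20 members depended on the setting. No paired analysis was possible because there was 1 sample.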
